A study of Mus musculus with 2 samples.

Results

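*Kit* and *Cd44* were compared as transcripts and as surface proteins in the same single cells of the mouse fetal liver. They are 2 of the 27998 genes listed for the cDNA library, and their products are recognised by 2 of the 10 barcoded antibodies, cKit and CD44. Both were taken by name, as the rows carrying these symbols and the antibodies raised against their products, which is a rule that uses no measured value. The cells came from C57BL/6 mouse embryos at e13.5 with no genetic change or treatment. Their livers were pooled before staining, partly depleted of Ter119+ cells and then given back Ter119+ cells, so the shares of the stages were set at the bench. In CITE-seq, each cell is stained with antibodies that carry DNA barcodes, and transcripts and antibody barcodes are then counted for the same cell. There was 1 cDNA library and 1 antibody library, all 7863 cell barcodes were found in both, and without replicate libraries no difference was tested. Intervals are 95% intervals of counting error and do not cover differences between embryos or libraries.

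Kit is the receptor tyrosine kinase for stem cell factor, which is encoded by *Kitl*. Signalling through Kit sustains blood stem and progenitor cells, mast cells and early erythroid progenitors, and the receptor is lost from the surface as erythroblasts mature. CD44 is a transmembrane receptor for the matrix polysaccharide hyaluronan, is linked to the cortical cytoskeleton through ERM proteins, and is found on most blood cells. Its decline on maturing erythroblasts is widely used, with cell size, to stage them by flow cytometry. *Kit* (ENSMUSG00000005672) lies on the plus strand of chromosome 5, from 75574987 to 75656722 in GRCm38, and *Cd44* (ENSMUSG00000005087) on the minus strand of chromosome 2, from 102811141 to 102901669. The cDNA counts are tags from the 3′ end of each transcript, summed over a gene, so they do not separate the splice forms for which *Cd44* is known.

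The barcodes below are what was counted as surface protein. They are shown because a count of cKit or CD44 is a count of its barcode, beside the barcodes of Ter119 and CD71, which placed the cells in stages, and of the IgG control.
cKit: aagcgcttggca
CD44: gtctagacttcg
Ter119: gaggcgattgat
CD71: cgaagaaggagt
IgG: cggagtagtaat
The cKit and CD44 barcodes differ at 11 of 12 positions, and no pair of barcodes in the panel differs at fewer than 4. The cKit barcode gave 1314355 counts, 12.4% of the antibody library, and the CD44 barcode gave 1572481 counts, 14.9%. The IgG control gave 346 counts in all and was seen in 3.76% of the cells. Antibodies differ in affinity and labelling, so counts are compared between cells for 1 antibody and not between antibodies.

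The cDNA library held 58606632 UMIs, with a median of 5707 per cell and a range of 2510 to 38047. *Kit* was covered by 1585 UMIs and *Cd44* by 2301, of which 1451 and 2085 were in the 7244 cells that passed the quality and doublet limits. Each cell's UMIs of a gene were scaled to 1000000 UMIs (CPM), and a transcript level is the average of these values. A surface level is given as the median antibody count per cell with its quartiles. Cells low for 5 lineage antibodies were divided by Ter119 and CD71 into 6 stages of erythroid maturation, called S0-low (n = 1387), S0-medium (n = 1006), S1 (n = 604), S2 (n = 1261), S3 (n = 835) and S4/S5 (n = 859). All cells of S0-low, S0-medium and S1 have low Ter119, with CD71 increasing in that order. In S2 Ter119 is intermediate with CD71 high, and S3 and S4/S5 have high Ter119 with CD71 above and below a border. Neither cKit nor CD44 was used to place a cell. The median depth differed between stages, with 5988 UMIs per cell for S0-low, 10304 for S0-medium, 10108 for S1, 6010 for S2, 4483 for S3 and 3944 for S4/S5.

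S0-low also held cells of clusters named as other than erythroid. Of its 1387 cells, 317 (22.9%) lay in clusters named as megakaryocyte-like, myeloid-like, macrophage-like or hepatocyte-like. A total of 596 (43.0%) lay in those or in 3 further clusters. These are called *Cd34*-led, *Ccr2*-led and *Dcn*-led after a gene among their top 10. Their markers gave them no cell type, and whether the 224 *Cd34*-led cells of S0-low lie outside the erythroid path was not tested. In each later stage these 7 clusters held at most 1.16% of the cells. The summed level of 10 hepatocyte markers was 6049 CPM in S0-low and 342 to 768 CPM in the later stages, and none of the 10 was at 0 in any stage. For 10 myeloid markers it was 590 CPM in S0-low and 77.5 to 201 CPM later. For 10 megakaryocyte markers it was 73.1 CPM in S0-low, 45.7 to 88.2 CPM later and 7059 CPM in the whole megakaryocyte-like cluster. S0-low thus did not stand out by megakaryocyte markers, although 214 of its cells lay in that cluster. These 214 cells therefore did not carry the markers at the level of the whole cluster, and its name is not borne out for them. Their cKit median was 476 counts, and whether they lie outside the erythroid path was not tested. Values outside the 7 clusters leave them out. Values for the 791 S0-low cells outside the 7 clusters are therefore given beside those of the whole stage.

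Across the stages, *Kit* transcript was high in S0 and close to its floor from S2 on, and the cKit antibody followed it later. *Kit* was 61.7 CPM (57.0–66.6) for S0-low, 27.6 CPM (24.8–30.7) for S0-medium and 7.97 CPM (6.08–10.3) for S1. It was 2.39 CPM (1.65–3.36) for S2, 3.21 CPM (2.01–4.85) for S3 and 2.16 CPM (1.18–3.62) for S4/S5. The first 4 stages were ordered without overlap of their counting intervals, and S2, S3 and S4/S5 overlapped each other. The cKit antibody had a median of 246 counts (quartiles 97.5–462) on S0-low cells, 218 (83–391) on S0-medium and 92 (42–182) on S1. It was 23 (15–39) on S2, 16 (12–22) on S3 and 13 (10–18) on S4/S5 cells. In hepatocyte-like cells, which are not known to carry Kit, *Kit* was 0.918 CPM (0.189–2.68) and the cKit median 23 counts. The cKit medians were at or below that value from S2 on. The 89 hepatocyte-like cells within S0-low, which are lineage-low like the stages, had a lower cKit median of 12 counts (8–21). From S0-low to S0-medium the transcript was reduced to 44.8% of its level while the antibody kept 88.6%. That transcript ratio was 0.448, and it was 0.774, 0.749 and 0.703 with gates scaled within cells, on log10 counts and by a Gaussian mixture, and 0.717 as UMIs per cell. Among cells of 6000 to 12000 UMIs the cKit median was 345 counts in S0-low and 226 in S0-medium. The antibody ratio was then 0.655, beside 0.532 for *Kit*. In S1 the transcript was at 12.9% and the antibody at 37.4%. Among the 791 S0-low cells outside the 7 clusters the *Kit* level was 60.0 CPM (54.1–66.4) and the cKit median 216 counts.

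As CPM, *Cd44* transcript also declined with maturation, but the CD44 antibody had its highest median in S1 and was above background into S3. *Cd44* was 61.3 CPM (56.5–66.5) for S0-low, 45.3 CPM (41.4–49.4) for S0-medium and 33.3 CPM (29.0–38.0) for S1. It was 9.71 CPM (8.04–11.6) for S2, 4.41 CPM (2.88–6.47) for S3 and 5.40 CPM (3.34–8.25) for S4/S5. Each step down to S3 on the CPM scale was larger than the counting error, and S3 and S4/S5 overlapped. These CPM include globin genes, which held 13.3% of the UMIs in S2 and 38.8% in S3. Without globin genes the S3 to S2 ratio of *Cd44* was 0.751, in place of 0.455 (0.286–0.700), so the size of that step depends on them. As UMIs per cell, *Cd44* was at 117% of S0-low in S0-medium, so it went up there as the antibody did, and at 86.2% in S1. The CD44 antibody had a median of 138 counts (63.5–246) on S0-low cells, 183.5 (112–259) on S0-medium, 209 (142–278) on S1, 119 (75–184) on S2, 76 (52–109) on S3 and 41 (28–58) on S4/S5 cells. The quartile ranges of S0-low, S0-medium and S1 overlapped broadly, whereas those of S1 and S3 did not. Hepatocyte-like cells had a CD44 median of 24 counts. Relative to S0-low, *Cd44* transcript was at 73.8%, 54.3%, 15.8%, 7.20% and 8.80% in the stages from S0-medium to S4/S5, and the antibody at 133%, 151%, 86.2%, 55.1% and 29.7%. In S0-low outside the 7 clusters, *Cd44* was 59.1 CPM (53.1–65.5) and the CD44 median was 111 counts.

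**Figure D1:**
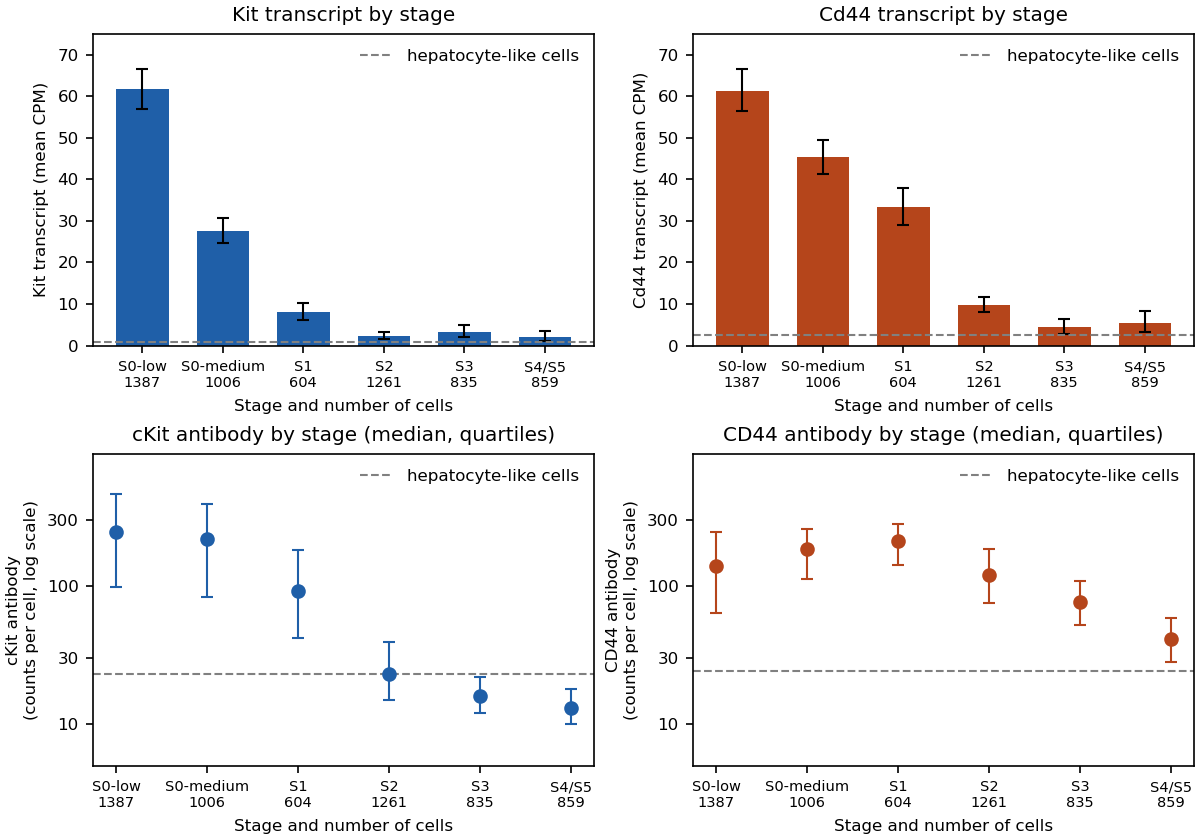
Transcript and surface antibody of *Kit* and *Cd44* in the 6 stages: bars are the mean CPM with its 95% Poisson interval, points the median antibody count per cell with quartiles, and dashed lines the levels in hepatocyte-like cells. *Kit* and cKit are both low by S2 (2.39 CPM and 23 counts), and CD44 is highest in S1 (209 counts), where *Cd44* is at 33.3 CPM.

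The size of the CD44 difference between S0-low and S1 varied with the cells and depths compared, and the part of depth in it was not tested. Over all passed cells both antibodies had higher counts in cells with more UMIs, with a Spearman correlation of 0.588 for cKit and 0.610 for CD44 (n = 7244). Among cells of 6000 to 12000 UMIs the CD44 median was 189.5 counts for S0-low (n = 422), 179 for S0-medium (n = 295) and 215 for S1 (n = 255), a ratio of S1 to S0-low of 1.13 in place of 1.51. When antibody counts were scaled within each cell to set the gates the ratio was 1.0, and with the 7 clusters left out it was 1.88. The scaling within cells draws on CD44 and cKit, so the measured antibodies had a part in those gates. From S0-low to S0-medium the CD44 ratio was 1.33, and it lay below 1 in 5 of the other settings, from 0.795 to 0.945. The fall of CD44 from S1 to S3 stood in the same depth range, where the median was 158 counts in S2 (n = 483), 117 in S3 (n = 172) and 42 in S4/S5 (n = 62). As a share of the antibody counts other than Ter119 and CD71, the S3 to S1 ratio of CD44 was 0.960 in place of 0.364. Those counts include CD44 and cKit themselves, with a median of 351 in S1 and 134 in S3. CD44 is there set partly against itself, so the share cannot show whether its count per cell fell. In the same depth range *Cd44* was 58.4 CPM (50.8–66.9) in S0-low, 32.6 CPM (25.8–40.6) in S1 and 4.29 CPM (1.57–9.33) in S3.

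In all 11 settings of the gates, cells and limits, the S1 to S0-low ratio of the antibody was above that of the transcript, for both genes. The cKit antibody was reduced 0.374-fold and *Kit* 0.129-fold (0.0975–0.169), so that the antibody ratio was 2.90 times the transcript ratio. For CD44 the antibody ratio was 1.51 and the *Cd44* ratio 0.543 (0.463–0.635), a quotient of 2.78. The single ratios moved with the gates, and with gates set on log10 counts they were 0.810 for cKit and 0.361 for *Kit*. Those gates also hold other cells. Their S0-low had 534 cells with a CD71 median of 22 counts, beside 1387 cells and 81 counts in the main gates. With gates scaled within cells it had 547 cells, and with a Gaussian mixture 534. The 11 settings are therefore not 1 comparison of the same cells repeated. The quotient was above 1 in 11 of 11 settings for both genes, from 1.83 to 3.23 for Kit and from 1.56 to 3.36 for CD44. When transcripts were counted as UMIs per cell, without division by depth, it was 1.76 and 1.75. The steps within this span pointed the same way, with quotients of 1.98 and 1.46 for Kit and 1.80 and 1.55 for CD44 from S0-low to S0-medium and from S0-medium to S1. For the first of these steps, with gates scaled within cells, the quotient was 1.23 for Kit and 1.015 for CD44, and with UMIs per cell 1.24 and 1.14.

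From S1 on, the genes differed. For CD44 the antibody again kept more than the transcript, with an S3 to S1 ratio of 0.364 for the antibody and 0.133 (0.0847–0.200) for *Cd44*, a quotient of 2.74 that was above 1 in 11 of 11 settings (2.03–4.15). For Kit the antibody ratio was 0.174 and the transcript ratio 0.402 (0.235–0.665), a quotient of 0.433 that was above 1 in 1 of 11 settings (1.55 among cells of 6000 to 12000 UMIs). With cKit as a share of the antibody counts other than Ter119 and CD71, which include cKit itself and CD44, it was 1.12. Both ends of that Kit comparison are thin: *Kit* had 60 UMIs in S1 and 22 in S3. All 11 settings kept globin genes in the CPM, and these held 2.81% of the UMIs in S1 and 38.8% in S3. Without globin genes the S3 to S1 ratio was 0.240 for *Cd44* and 0.676 for *Kit*, in place of 0.133 and 0.402. With UMIs per cell the quotient was 4.26 for CD44 and 0.657 for Kit. The cKit median in S3 (16 counts) was below that of all hepatocyte-like cells (23) and above that of those within S0-low (12).

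**Figure D2:**
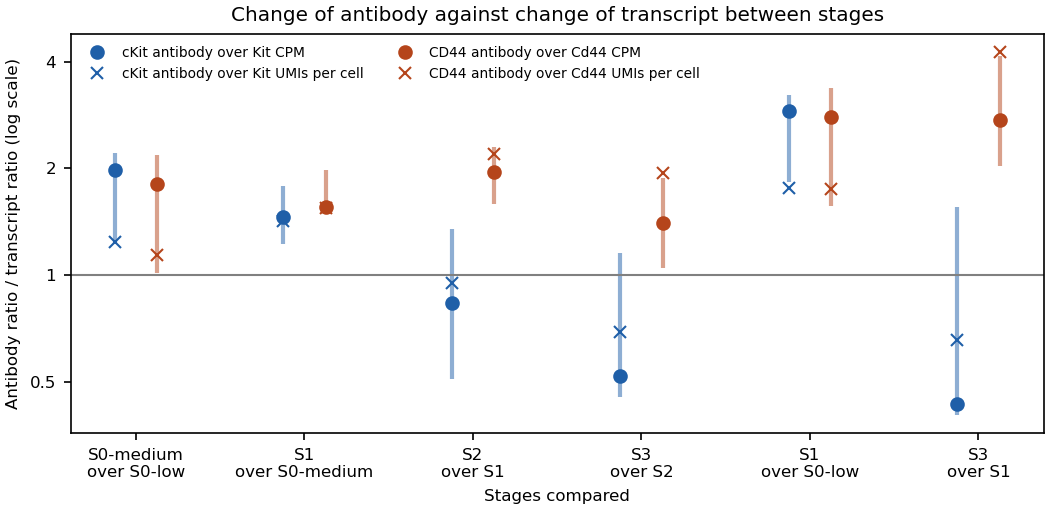
Antibody ratio divided by transcript ratio for each step and span of the stages, on a log axis: circles use CPM, crosses use UMIs per cell, and bars give the range over 11 settings, with a line at 1. From S0-low to S1 both genes lie above 1 (2.90 for Kit and 2.78 for CD44), and from S1 to S3 they part, at 0.433 and 2.74.

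The same cells were also ordered finely, without stage borders. Ter119-low cells outside the 7 clusters were sorted by CD71 into 10 groups of 238 or 239 cells, with CD71 medians from 66 to 1598 counts. *Kit* was 71.5, 67.8, 47.2, 37.1, 32.5, 27.3, 18.1, 18.4, 8.88 and 4.58 CPM from the first group to the last. It was therefore lower already in the third group, where its interval (39.1–56.4) lay below that of the first (57.9–87.3). The cKit median was 190, 212, 236, 253, 264, 225.5, 167, 147, 100 and 74 counts. The cKit median was thus highest in the fifth group, although the quartile ranges of the first 8 groups overlapped. There *Kit* was below the first group as CPM and not as UMIs per cell, which were 0.402 in the first group and 0.414 in the fifth. *Cd44* was 62.9, 58.3, 50.1, 59.1, 49.4, 50.1, 40.2, 33.9, 36.1 and 26.0 CPM, and the CD44 median was 80, 119, 133, 152, 184, 175, 197, 197, 206 and 219 counts. As CPM, *Cd44* was lower at the end of this order and its antibody higher. As UMIs per cell, *Cd44* went up from 0.360 in the first group to 0.550 in the sixth, with the antibody, and then down to 0.286 in the last. The median depth was 5014 UMIs in the first group, 10508 in the fifth and 9988 in the last, and its part in the antibody counts was not tested. Of the 791 S0-low cells outside the 7 clusters, 460 lay in a cluster led by *Rpgrip1* and *Pfas*, and 230 in one called *Srm*-led. Their median depths were 4916 and 12542 UMIs, with cKit at 155 and 481 counts and CD44 at 88 and 217. How far this make-up shapes the order by CD71 was not tested.

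**Figure D3:**
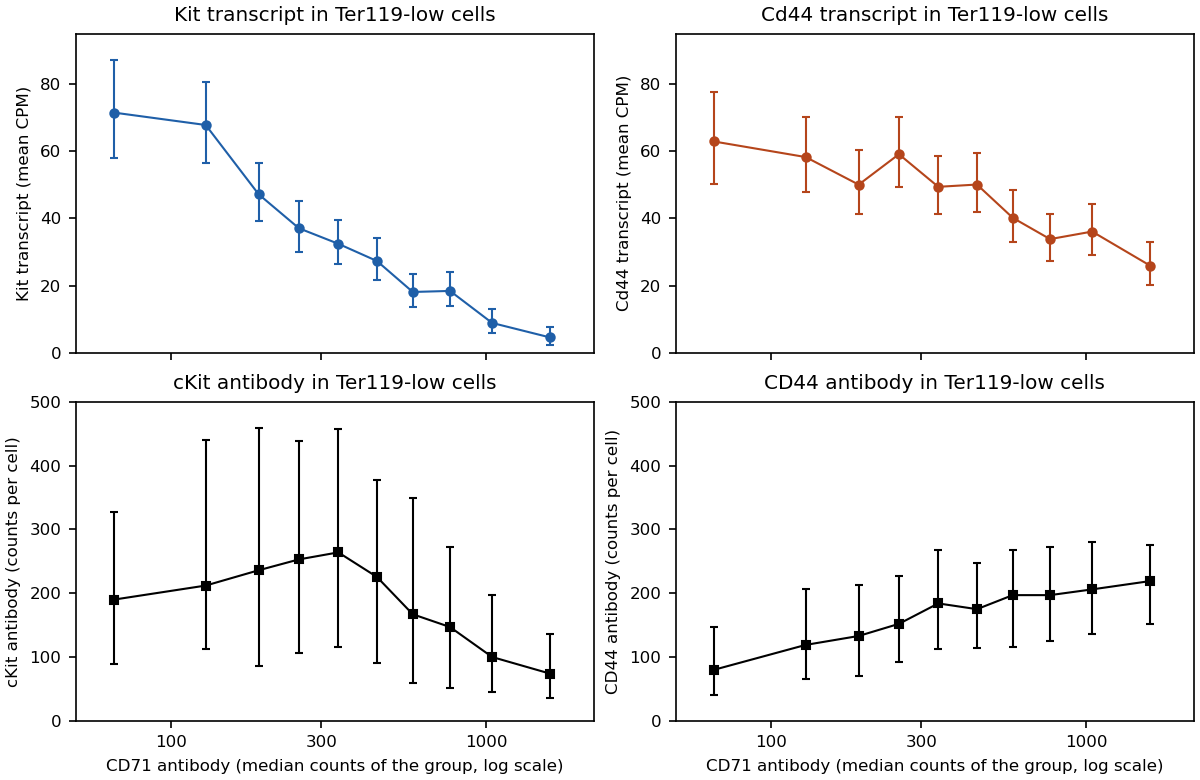
Transcript (mean CPM with 95% Poisson interval) and antibody (median with quartiles) of *Kit* and *Cd44* in 10 groups of Ter119-low cells ordered by CD71, outside the 7 clusters. *Kit* declines from 71.5 to 4.58 CPM while cKit peaks at 264 counts in the fifth group, and CD44 climbs from 80 to 219 counts as *Cd44* declines from 62.9 to 26.0 CPM. The groups also differ in median depth, with 5014 UMIs in the first and 9988 in the last.

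Sorting all stage cells outside the 7 clusters by Ter119 showed the later part of the course. In 10 groups of 553 or 554 cells, *Kit* was 53.5, 41.6, 32.9 and 14.2 CPM in the first 4 groups, 4.88 CPM in the fifth and between 2.20 and 3.50 CPM in the other 5. The cKit medians were 187.5, 249.5, 228.5 and 116.5 counts in the first 4 groups and 38.5 in the fifth. *Cd44* was 38.3 CPM (33.6–43.5) in the fourth group, 16.9 CPM (13.8–20.5) in the fifth and 7.50 CPM (5.31–10.3) in the sixth. The CD44 medians of these groups were 195.5, 154 and 114 counts, and the last group still had 48. The steepest part of the *Cd44* decline therefore fell between Ter119 medians of 14 and 49 counts, and CD44 counts declined over a wider range of Ter119.

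Cells with similar antibody counts held different amounts of transcript in different stages, with S0-low taken whole. Each stage was divided into 10 groups of equal size ordered by its antibody count. The S0-low cells with a cKit median of 154 counts held *Kit* at 76.5 CPM (57.3–100). At 135 counts in S0-medium *Kit* was 14.6 CPM (7.56–25.6), at 138 counts in S1 it was 10.7 CPM (4.29–22.0), and at 127 counts in S2 it was 13.6 CPM (8.82–20.1). The S0-low value lay above the other 3, which overlapped each other. At higher cKit, *Kit* was 65.2 CPM (51.7–81.1) at 465 counts in S0-low and 54.9 CPM (43.2–68.8) at 488 counts in S0-medium, which overlapped. It was lower in S1, at 24.8 CPM and 429.5 counts, where the interval ended at 37.9. For CD44 the groups with medians from 302 to 320 counts gave *Cd44* at 86.2 CPM (70.7–104) for S0-low, 57.6 CPM (45.3–72.2) for S0-medium, 46.3 CPM (31.9–65.0) for S1 and 31.8 CPM (24.3–40.8) for S2. The interval of S0-low lay above those of S1 and S2 here. In the groups on either side S0-low and S1 overlapped, with 71.1 CPM (57.0–87.7) at 247 counts against 47.2 CPM (32.1–67.0) at 250.0, and 58.7 CPM (46.6–72.9) at 415.5 counts against 38.8 CPM (27.2–53.8) at 399.5. These groups also differed in depth: the S0-low cells at 154 cKit counts had a median of 5009 UMIs and the S1 cells at 138 counts had 11878. They differed in make-up too, since S0-low here includes its cells of the 7 clusters. Of its 578 cells above 170.5 CD44 counts, 246 lay outside these clusters, as did 515 of its 941 cells above 134.5 cKit counts. How far depth and make-up shape the differences was not tested.

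Many cells with high antibody counts had no UMI of the gene. Antibody counts were divided into low and high by 2-class k-means, at 134.5 counts for cKit and 170.5 for CD44. This is a range and not a cell type, and 207 and 535 of the 7244 cells lay within 10% of the border. The cKit-high share was 67.8% (65.3–70.3) of S0-low, 64.9% (61.9–67.9) of S0-medium, 35.6% (31.8–39.6) of S1, 4.84% (3.72–6.17) of S2, 2.63% of S3 and 1.16% of S4/S5 cells. Hepatocyte-like cells gave 4.89% (2.26–9.08), which the S2 share did not exceed. The 89 hepatocyte-like cells within S0-low, which are lineage-low like the stages, gave 0% (0–4.06). In S2 the 61 cKit-high cells held *Kit* at 26.2 CPM and the other cells at 1.18 CPM. Transcript and antibody were thus high together in a small part of the cells gated as S2. The highest of 10 equal groups of S2 by cKit had a median depth of 12576 UMIs, beside 6010 for the stage. Whether these are single S2 cells was not tested. The CD44-high share was 41.7% (39.1–44.3), 54.6% (51.4–57.7), 63.2% (59.3–67.1), 29.3% (26.8–31.9), 9.82% (7.89–12.04) and 0.931% (0.403–1.83) in the same order, against 9.24% (5.47–14.4) in hepatocyte-like cells. In S0-low outside the 7 clusters the high share was 65.1% (61.7–68.4) for cKit and 31.1% (27.9–34.5) for CD44. The CD44-high share of S2 thus exceeded that of all hepatocyte-like cells, while its cKit-high share did not.

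Of the cKit-high cells, 57.7% in S0-low had no *Kit* UMI, and in S1, with a higher median depth, 172 of 215 (80.0%) had none. The cKit-high cells held *Kit* at 78.8 CPM in S0-low and 17.8 CPM in S1, levels at which a cell of this depth often gives 0 UMIs. A count of 0 therefore does not show that the transcript was absent, and the share expected from sampling was not tested. With every cell thinned to 2000 UMIs, the shares were 83.9% and 95.8%. Of the CD44-high cells, 56.9% in S0-low, 63.1% in S1 and 81.6% in S2 had no *Cd44* UMI. In S0-low outside the 7 clusters, 56.7% of the cKit-high cells had no *Kit* UMI and 49.6% of the CD44-high cells no *Cd44* UMI. The share of cells with a UMI moved with depth: a *Kit* UMI was found in 32.2% of S0-low cells as sequenced and in 12.5% (10.9–14.4) after thinning, and in 8.77% and 1.99% (1.03–3.45) of S1 cells. In hepatocyte-like cells, with a median of 12969 UMIs, 1.63% had a *Kit* UMI, and after thinning 0 of 184 cells did, which allows a share of up to 1.63% when 3 cells are taken as the limit for a count of 0. For *Cd44* the thinned shares were 11.2% (9.57–12.9) in S0-low, 5.46% (3.79–7.59) in S1 and 0.719% (0.264–1.56) in S3.

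Over all passed cells together, transcript and antibody of each gene were related, but the antibodies were related more closely to each other. Over the 7244 cells the Spearman correlation of transcript and own antibody was 0.451 for Kit and 0.373 for CD44, and 0.232 and 0.177 after thinning. *Cd44* had a Spearman correlation of 0.393 with the cKit antibody, and the antibodies had 0.739 with each other (0.875 within S0-low). With CD44 and with cKit, *Cd44* had 0.209 and 0.203 in S0-low, 0.280 and 0.290 in S0-medium, and 0.274 and 0.321 in S1. Within clusters *Cd44* and CD44 had -0.038 in myeloid-like, 0.101 in megakaryocyte-like and 0.080 in *Cd34*-led cells. The highest was 0.390 in the *Dcn*-led cluster. *Kit* and cKit had 0.496, 0.301, 0.265 and 0.265 in these 4 clusters. All points share 1 library and the depth of the cell, so these are descriptions. The median cKit count was 30 in cells with 0 *Kit* UMIs, 355.5 with 1, 479.5 with 2 and 528 with 3 or more, and the median CD44 count was 102, 240, 281 and 359 for *Cd44*. Within S1 alone the cKit median was 82 counts in the 551 cells with 0 *Kit* UMIs and 228 in the 46 cells with 1.

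All passed cells were then divided into 10 groups of equal size by each antibody. *Kit* was 75.9 CPM in the highest and 2.65 CPM in the lowest group of cKit, a 28.7-fold difference (13.8–71.6). *Cd44* was 90.6 and 10.1 CPM in the same groups of CD44, an 8.95-fold difference (6.13–13.6). The same comparison for other antibodies of the panel gave 11.7-fold for *Tfrc*, the transferrin receptor seen by the CD71 antibody. It gave 35.8-fold (21.5–64.2) for *Itga2b* with CD41, 54.5-fold (9.57–2171) for *Itgam* with CD11b, whose lowest group held 1 UMI, and 19.1-fold for *Ly6g*, *Ly6c1* and *Ly6c2* together with Ly6G/6C. *Ptprc* with CD45R gave 1.22-fold (0.852–1.77). That antibody sees 1 splice form, while the tags count all forms. *Cd3e* had 0 UMIs. Over all passed cells, Kit and CD44 thus lay among the pairs of the panel whose transcript and antibody went together. These groups also differ in depth and cell make-up, whose part was not tested. The interval of CD44 overlapped that of *Tfrc* (9.77–14.1) and lay below those of Kit and *Itga2b*.

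**Figure D4:**
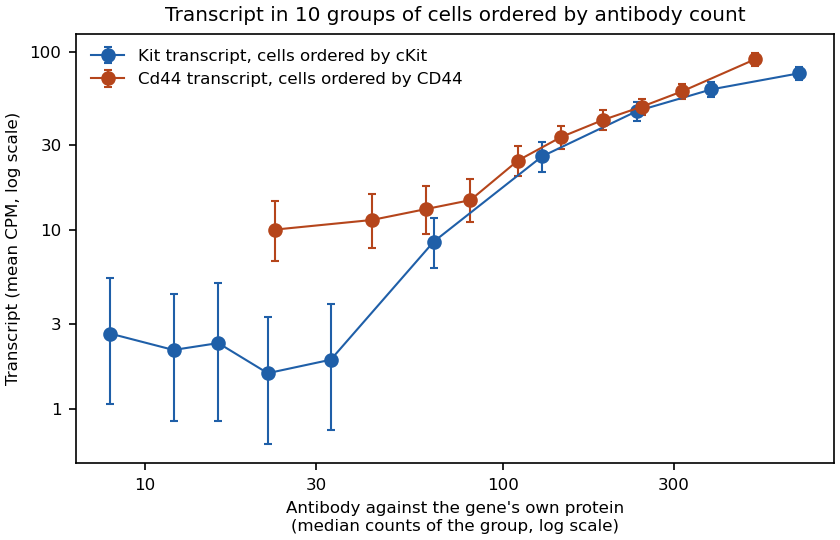
Mean CPM (95% Poisson interval, log axis) of *Kit* and *Cd44* in 10 groups of 724 or 725 passed cells, against the group's median count of the gene's own antibody (log axis). *Kit* is flat, between 1.59 and 2.65 CPM, over the 5 lowest groups and reaches 75.9 CPM in the highest, and *Cd44* goes from 10.1 to 90.6 CPM.

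The genes were also followed over clusters, erythroid and not. Clusters were made without *Kit* and *Cd44* and hold cells of any lineage antibody count, so some of their cells also count in S0-low. *Kit* was highest in the *Cd34*-led cluster (n = 453), at 89.8 CPM (79.8–101) with a cKit median of 418 counts, and in the *Srm*-led cluster (n = 428), at 63.8 CPM (57.3–70.8) with 502 counts. Of these, 224 and 230 cells also count in S0-low. The *Cd34*-led cells had *Cd44* at 91.1 CPM (80.4–103) and CD44 at 296 counts as well, so both genes were high there. *Cd34* encodes a surface sialomucin of stem and progenitor cells, and *Srm* encodes spermidine synthase. The transcript was 1.41-fold (1.201–1.65) higher in the *Cd34*-led than in the *Srm*-led cells, whereas the cKit median was 0.833-fold. The *Cd34*-led cells had a lower median depth, 6745 against 12981 UMIs.

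*Cd44* was highest in macrophage-like cells (n = 83), at 278 CPM (236–326), and so was the CD44 antibody, with a median of 1401 counts (858–2093) and 83 of 83 cells above the border. Their *Kit* level was 7.32 CPM (1.99–18.7), from 4 UMIs, and their cKit median 47 counts. Myeloid-like cells (n = 163) had *Cd44* at 120 CPM (100.1–142) and a CD44 median of 484 counts, with *Kit* at 39.8 CPM (29.96–51.8) and cKit at 193 counts. Between these classes *Cd44* differed 2.32-fold (1.83–2.95) and the CD44 median 2.90-fold. The *Ccr2*-led cluster (n = 185), named here for a chemokine receptor of monocytes, had *Cd44* at 84.3 CPM (68.7–102) with CD44 at 306 counts, and *Kit* at 17.9 CPM (11.1–27.3) with cKit at 80 counts.

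Megakaryocyte-like cells (n = 379) had *Kit* at 56.9 CPM (49.1–65.6) with cKit at 359 counts, and *Cd44* at 41.6 CPM (35.1–49.0) with CD44 at 300 counts. The *Kit* level depends on which cells carry the name, since it was 4.47 and 12.4 CPM with coarser and finer clusters. The class was mixed in *Kit*: in its 3 equal parts ordered by CD41, a platelet integrin, *Kit* was 82.7, 69.5 and 18.1 CPM and cKit 500, 549 and 184 counts. *Cd44* in these parts was 54.6, 36.7 and 33.4 CPM, while CD44 was 241, 307.5 and 355.5 counts. In the part of highest CD41, *Kit* was 0.219-fold (0.128–0.359) and *Cd44* 0.613-fold (0.399–0.933) the level of the lowest part. Myeloid-like cells ordered by CD11b, an integrin of maturing myeloid cells, gave *Kit* at 59.0, 54.4 and 5.61 CPM and cKit at 266, 244.5 and 53.5 counts. Their *Cd44* was 146, 124 and 89.2 CPM and their CD44 363, 564.5 and 550 counts. Their highest part had *Kit* at 0.095-fold (0.0186–0.306) and *Cd44* at 0.612-fold (0.373–0.989) the level of the lowest. In both classes, then, the part of highest lineage antibody had less *Kit*, less cKit and less *Cd44* than the lowest part, with a higher CD44 median. The *Ccr2*-led cells ordered by CD11b had cKit at 148, 102.5 and 26 counts and CD44 at 192.5, 333 and 484. The *Cd34*-led cells did not share the decline of cKit, with medians of 284, 413 and 611 counts and *Kit* at 70.5, 106 and 93.3 CPM.

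Some clusters went against the general relation or lay at its floor. The *Dcn*-led cluster (n = 64) is named here for the gene of the matrix proteoglycan decorin, which is among its top 10 genes. It had a cKit median of 314 counts and a CD44 median of 228.5, with 9 *Kit* UMIs (17.0 CPM, 7.78–32.3) and 5 *Cd44* UMIs (7.56 CPM, 2.46–17.6). In these 64 cells cKit and CD44 had a Spearman correlation of 0.782 with each other, and cKit 0.757 with CD71 and 0.627 with Ter119, so several antibodies were high in the same cells. The same correlations were 0.648, 0.697 and 0.638 in hepatocyte-like cells, so this was not particular to the *Dcn*-led cluster. Whether the antibody counts of the *Dcn*-led cells are their own surface protein was not tested. Hepatocyte-like cells (n = 184) had *Cd44* at 2.56 CPM (0.529–7.49). In the *Hbb-y*-led cluster (n = 75), led by an embryonic globin gene, the CD44 median was 7 counts and cKit 12. *Cd44* UMIs were found in 0 of 75 cells, which allows a share of up to 4.00% by the same limit of 3 cells. S4/S5 cells had a *Cd44* UMI in 2.45% of cells and a CD44 median of 41, so the clusters differed in antibody while a difference in transcript was not detectable at this depth. A further 208 lineage-low cells had intermediate Ter119 with CD71 below S2 and belonged to no stage; their *Kit* level was 14.0 CPM (7.46–24.0) from 13 UMIs, with cKit at 13 counts and CD44 at 50.

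**Figure D5:**
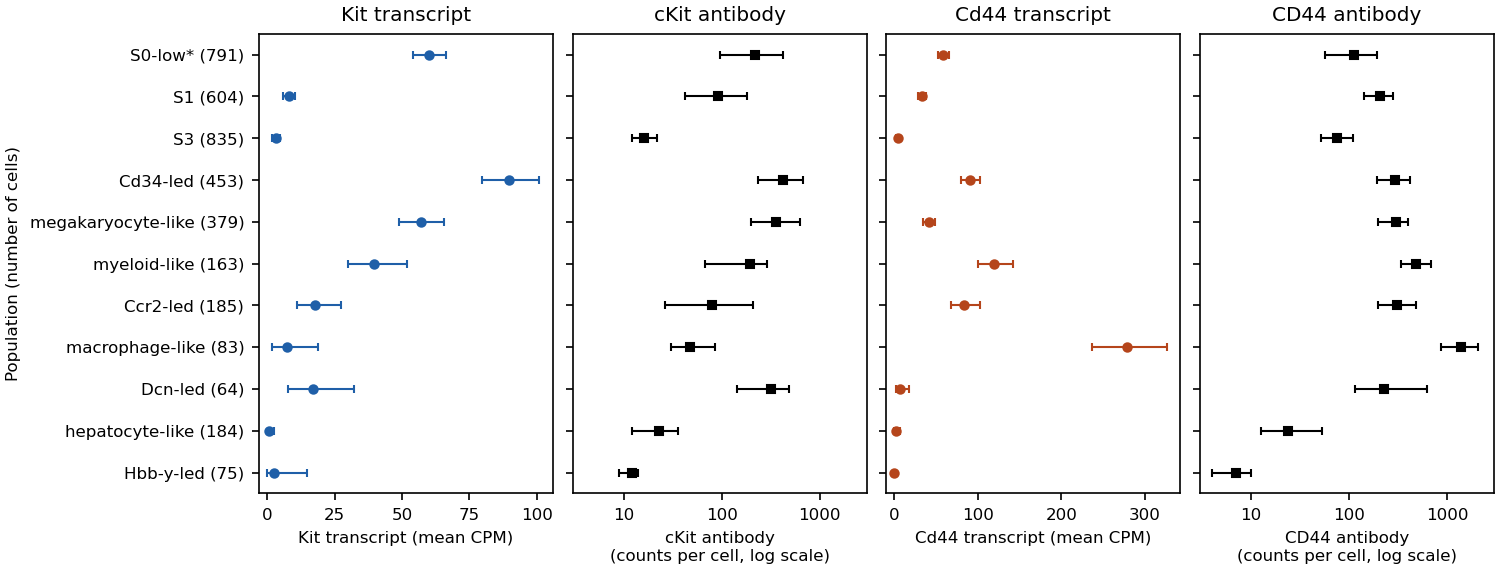
Transcript (mean CPM, linear axis, with 95% Poisson interval) and antibody (median count per cell with quartiles, log axis) of *Kit* and *Cd44* in stages and clusters, with the number of cells in brackets; S0-low* is S0-low without the 7 clusters. Macrophage-like cells stand apart for CD44 (278 CPM and 1401 counts), and the *Dcn*-led cluster has high antibody counts at a low transcript level for both genes.

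Over all genes, a change was called where the ratio of mean CPM plus 10 was at least 2-fold. A gene below 10 CPM at the start cannot be called as fallen by this rule, however far it falls. From S0-low to S1, 4.39% of 11238 genes fell and 1.3% rose by this rule. *Kit* fell, to a ratio of 0.251, and 100 genes fell further, while *Cd44* at 0.607 was not called. Against S0-low outside the 7 clusters only 0.97% of the genes fell and 0.774% rose, and *Kit* at 0.257 was then the fifth largest fall. The larger ones, named after their values were seen, were *Gm15915*, *Ptprcap*, *Myb* and *Cdk6*. *Cd44* stood at 0.626 there. From S1 to S3, 21.8% of the genes fell and 2.04% rose. *Cd44* fell, to 0.333, with 590 genes falling further, and *Kit* stood at 0.735. At 7.97 CPM in S1, *Kit* could not be called as fallen, and its ratio of plain CPM was 0.402 (0.235–0.665). The fall of *Cd44* is one that a large share of genes had, on CPM that include the globin UMIs.

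The Kit pathway was described by a list of 54 genes, all of which had at least 50 UMIs. From S0-low to S1, 9 fell, 1 rose and 44 were not called, where 4.39% of all genes fell and 1.3% rose. Those not called include genes below 10 CPM in S0-low, such as *Plcg2* at 9.47 CPM, whose fall the rule cannot call. The median log2 ratio was -0.47 beside -0.16 over all genes. The largest falls were in *Myb* (ratio 0.204) and *Gata2* (0.229), transcription factors of progenitors, *Dok2* (0.321) and *Ptpn6* (0.368), inhibitors of receptor signalling, and *Grb2* (0.429) and *Vav1* (0.429), an adaptor and an exchange factor downstream of the receptor. The only rise was of *Gab1* (2.09), a docking adaptor. Outside the 7 clusters, *Grb2*, *Stat5a* and *Myb* fell (3 of 54, beside 0.97% of all genes) and none rose, with a median of -0.21 beside -0.079. From S1 to S3, 10 of the 54 fell and none rose, at a median of -0.48 beside -0.44. That share was no larger than the 21.8% of all genes that fell. The ligand *Kitl* was at 6.50 CPM in S0-low and at most 1.21 CPM in the later stages, and at 86.1 CPM in hepatocyte-like cells, of which S0-low holds 89. With S0-low taken outside the 7 clusters, its S1 to S0-low ratio on the CPM plus 10 scale was 1.09, in place of 0.660. Ligand and receptor transcripts were therefore highest in different cells.

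Of 35 genes listed as CD44 ligands, partners and cleavage enzymes, 26 had 50 UMIs. From S0-low to S1, *Srgn*, which encodes the proteoglycan core serglycin, *Iqgap1*, a cytoskeletal scaffold, and *Fyn*, a Src-family kinase, fell and none rose. These are 3 of the 26, beside 4.39% of all genes that fell. Outside the 7 clusters none of the 26 was called, where 0.97% of all genes fell and 0.774% rose. From S1 to S3, 4 of the 26 fell, a share below the 21.8% of all genes: *Ezr* and *Rdx*, the ERM proteins ezrin and radixin that tie CD44 to actin, *Khdrbs1*, an RNA-binding splicing regulator, and *Arhgef1*. The median log2 ratio was -0.49 beside -0.44 over all genes. The hyaluronan synthases *Has1*, *Has2* and *Has3* had 0, 6 and 3 UMIs in all passed cells, too few to place.

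The genes whose profiles were most like those of *Kit* and *Cd44* were ranked by Pearson r of log2 mean CPM plus 10 over 10 populations, the 6 stages and 4 named classes, among 8977 genes. For *Kit* they were *Myb* (0.972), *Frat2* (0.971), *Impa2* (0.965), *Slc7a6* (0.963) and *Rnaseh1* (0.962). For *Cd44* they were *Arhgap9* (0.987), *Tbc1d22a* (0.983), *Casp8* (0.983), *AI413582* (0.974) and *Ggta1* (0.973). The populations share cells, and none of these genes was among the closest 5 by Spearman correlation of the mean CPM, so the order is a description of these 10 values only.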

How the data were processed

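Counts were taken as deposited: the authors mapped cDNA reads to mm10 with Cell Ranger, giving UMI counts per gene and cell, and assigned antibody reads with CITE-seq-Count, giving whole counts per antibody and cell. Whether repeated antibody reads were collapsed is not given in the sources used here, so antibody medians carry no interval. Reads without a matching barcode made up 1.05%. The quality limits were 300 to 5000 detected genes and 9% mitochondrial UMIs, which 508 cells failed, and Scrublet marked 128 doublets (1.63%), leaving 7244. Lineage-low cells (6160) had a summed count of at most 73.6 for CD41, CD45R, CD3e, CD11b and Ly6G/6C. Ter119 and CD71, as centred log ratios across cells, were divided by k-means in scikit-learn 1.9.0, and intervals came from SciPy 1.17.1. Leiden clusters in Scanpy 1.11.5 (resolution 0.8, 16 components, without *Kit* and *Cd44*) were named from at least 3 fixed markers among the top 10 genes. Intervals were exact Poisson, Clopper-Pearson, or conditional binomial for ratios. No test across samples was possible with 1 library. Members of the lists were named if called by the 2-fold rule, up to 6 each way. The genes and lists were chosen with earlier results of these data known. Alternatives changed gates, limits, scaling, depth and clusters. The procedures were tested on simulated data. The comparison for 1 antibody of the panel is not reported here.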

Additional observations from a re-analysis of the deposited data

Results flagged for a closer look

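The 619 cells removed by the quality and doublet limits, which the main comparisons left out and which the settings without those limits put back, held 134 *Kit* UMIs and 216 *Cd44* UMIs. Among the 508 that failed the quality limits, with a median of 11.7% mitochondrial UMIs, *Kit* was 49.2 CPM (39.9–60.0) with a cKit median of 81 counts, and *Cd44* was 71.2 CPM (60.4–83.4) with a CD44 median of 160.5. Among the 111 that passed those limits and were called doublets, *Kit* was 27.3 CPM with cKit at 261 counts, and *Cd44* 44.2 CPM with CD44 at 298.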

How the results depend on the processing

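With 1 library, no result passes or fails a test, and no paired analysis was possible because no groups of replicates exist. Depth limits *Kit* from S2 on, where 14 to 33 UMIs stand behind each stage. The quotient of antibody to transcript ratio from S0-low to S1 stayed above 1 in all 11 settings. The settings of depth range and of left-out clusters beyond the named ones were chosen after seeing the data, and the causes of the shifts below were not tested.

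For S1 over S0-low, *Kit* moved from 0.129 to 0.284 (Gaussian mixture), 0.240 (scaling within cells), 0.361 (log10 gates) and 0.213 (UMIs per cell), and *Cd44* from 0.543 to 0.640 (scaling within cells), 0.636 (log10), 0.646 (pooled CPM) and 0.862 (UMIs per cell). The cKit ratio moved from 0.374 to 0.681 (Gaussian), 0.466 (within cells), 0.810 (log10), 0.303 (without the *Rpgrip1*-led clusters), 0.309 (background subtracted), 0.258 (6000 to 12000 UMIs) and 0.472 (share of the other antibodies). CD44 moved from 1.51 to 1.27, 1.0, 1.24, 1.13, 1.73, 1.13 and 1.85 in the same order, and to 1.29 (mean over cells), 1.88 (7 clusters left out) and 1.07 (no lineage limit). For S0-medium over S0-low, CD44 turned to 0.848 (Gaussian), 0.879 (within cells), 0.945 (6000 to 12000 UMIs), 0.795 (log10) and 0.932 (no lineage limit), and *Cd44* to 1.17 (UMIs per cell). S2 over S1 turned to 1.07 for CD44 as a share of the other antibodies. Shares here are of the antibody counts other than Ter119 and CD71, which include cKit and CD44 themselves.

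For S3 over S1, *Kit* moved from 0.402 to 0.139 (Gaussian), 0.135 (within cells), 0.145 (6000 to 12000 UMIs), 0.120 (log10) and 0.676 (without globin genes), and *Cd44* from 0.133 to 0.0801 (within cells) and 0.240 (without globin genes). The cKit ratio moved from 0.174 to 0.0914 (Gaussian), 0.0924 (within cells), 0.225 (6000 to 12000 UMIs), 0.0766 (log10), 0.211 (mean) and 0.451 (share). CD44 moved from 0.364 to 0.323 (within cells), 0.208 (background subtracted), 0.544 (6000 to 12000 UMIs), 0.432 (mean) and 0.960 (share).

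Without thinning, a *Kit* UMI was found in 32.2%, 8.77% and 2.40% of S0-low, S1 and S3 cells and a *Cd44* UMI in 31.1%, 27.3% and 2.75%. With the border at the 95th percentile of hepatocyte-like cells, S0-low and S1 were 72.0% and 41.9% cKit-high and 36.8% and 56.0% CD44-high. With clusters at resolution 0.4 and 1.2, megakaryocyte-like cells had *Kit* at 4.47 and 12.4 CPM, cKit at 87.5 and 190.0 and CD44 at 408 and 351, with *Cd44* at 30.6 CPM at 1.2. Myeloid-like cells had *Kit* at 63.3 and 66.6 CPM, cKit at 265 and 224, and CD44 at 326 and 368, with *Cd44* at 96.5 CPM at 0.4. Hepatocyte-like cells at 0.4 had *Kit* at 5.07 CPM, cKit at 27.0 and CD44 at 35.0. With a pseudocount of 1 CPM, 2275 genes fell and 336 rose from S0-low to S1, and 5419 fell and 390 rose from S1 to S3.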
